A study of Mus musculus with 10 samples.

Results

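The 8 genes examined here code for the lipid-sensing receptor TREM2, its signalling adaptor TYROBP and proteins that mark the macrophages and microglia that take up lipid in a TREM2-linked manner. They are *Trem2*, *Tyrobp*, *Gpnmb*, *Spp1*, *Cd9*, *Lgals3*, *Cst7* and *Clec7a*, and they were found in the table of read counts by their gene names. All 8 were among its 55487 genes, and all 8 passed a filter on low counts (more than 1 CPM, the read count scaled to a common library size, in at least 3 libraries) that 13740 genes passed. The question is how the levels of these genes compare between myeloid cells that make the arginine-degrading enzyme arginase 1 (ARG1) and those that do not.

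Cells came from the spinal cord of 5 male mice on the C57BL/6 background with the Arg1tm1Lky allele, a reporter in which cells that express *Arg1* also make yellow fluorescent protein (YFP). All mice had experimental autoimmune encephalomyelitis (EAE), a model of multiple sclerosis, and were at peak disease. Viable CD45+CX3CR1+ cells without CD3 and Ly6G were sorted into 200000 YFP+ (ARG1+) and 100000 YFP- (ARG1-) cells per mouse, which gave 5 ARG1+ and 5 ARG1- libraries that pair by animal (m2, m6, m234, m235 and m236). Both groups carry the reporter allele and the disease, and healthy animals are not part of the comparison. The gate takes all CX3CR1+ cells, so monocyte-derived cells, microglia and border-associated macrophages can all be in it. The ages of the animals are not in the labels.

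TREM2 is a surface receptor of macrophages and microglia that binds phospholipids, lipoproteins and apolipoprotein E. It has no signalling tail of its own and passes its signal through TYROBP (DAP12), whose immunoreceptor tyrosine-based activation motif recruits the kinase SYK. In demyelinated tissue, where phagocytes take up myelin debris, this pathway is known for its part in handling cholesterol, and cells that use it are commonly recognised by high *Gpnmb*, *Spp1*, *Cd9*, *Lgals3*, *Cst7* and *Clec7a*.

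The sort was visible in *Arg1* itself, at 587 to 1047 CPM in the ARG1+ and 14.3 to 26.9 CPM in the ARG1- libraries. Library totals were 28212174 to 35455643 counts in 9 libraries and 8396863 in the ARG1- library of m234, which therefore stands apart in depth. The same library also had the highest summed level of 9 microglia markers, 946 CPM against 216 to 509 in the other ARG1- and 161 to 317 in the ARG1+ libraries, and none of the 9 markers was at 0 in all libraries. Results of the 8 genes that rest on it are given with and without it, whereas values of single marker and companion genes are with all libraries kept. Markers of the sorted myeloid cells summed to 12100 to 17100 CPM in ARG1+ and 10600 to 13000 CPM in ARG1- libraries, whereas those of T cells reached at most 2.68 CPM, of B cells 5.64 CPM and of NK cells 1.64 CPM. Other markers also differed between the sorts. Of 7 monocyte markers 0 rose and 3 fell (*Ccr2*, *Plac8* and *Vcan*), of 4 tested markers of border-associated macrophages 3 rose (*Mrc1*, *Pf4* and *Ms4a7*), and of 5 tested dendritic cell markers 4 fell (*Ccr7*, *Dpp4*, *Flt3* and *Zbtb46*), at an FDR below 0.05 in edgeR, where 6.82% of all tested genes rose and 6.15% fell. The list of border-associated macrophages held 8 markers, and *Cd163*, *Lyve1*, *Folr2* and *Cbr2* did not pass the filter on low counts. They had 6, 15, 23 and 139 counts over the ARG1+ libraries and 1, 8, 9 and 83 over the ARG1- libraries. Of 3 tested neutrophil markers 0 rose and 1 fell (*S100a9*). With the animal as a block 3 of the monocyte markers rose and 4 fell, and without the ARG1- library of m234, a setting added after seeing the data, 1 rose. No monocyte marker rose in limma-trend, while DESeq2 called 1 higher, as did an unadjusted p below 0.05 in edgeR. The most abundant marker of each list, where it did not pass the test, was *Olfml3* for microglia (-0.61), *Chil3* for monocytes (0.34), *Clec12a* for border-associated macrophages (-0.16), *Clec9a* for dendritic cells (0.28), *Csf3r* for neutrophils (-0.34), *Lck* for T cells (-0.47), *Cd79b* for B cells (0.08), *Mbp* for oligodendrocytes (0.18) and *Aldh1l1* for astrocytes (-0.12). For the sorted myeloid cells it was *Lyz2*, which rose by 0.65 on the log2 scale (FDR = 0.00764 in edgeR). Among those with the largest change in their list, not past the test either, were *Cx3cr1* (-1.01) of the sorted myeloid cells, *Slc1a3* (-1.94) of astrocytes and *Mobp* (0.20) of oligodendrocytes. With the animal as a block *Cx3cr1* (FDR = 9.24e-05) and *Slc1a3* (FDR = 0.0042) fell, and *Mobp* did not pass (FDR = 0.294, all in edgeR). Of the most abundant markers not past the test, *Chil3* (FDR = 0.00132) and *Mbp* (FDR = 0.00306) rose and *Csf3r* (FDR = 0.00329, all in edgeR) fell with the block. Sums of the marker lists were 2860 to 9550 CPM in ARG1+ against 2800 to 8260 CPM in ARG1- libraries for monocytes, 311 to 435 against 292 to 393 CPM for border-associated macrophages, 142 to 204 against 173 to 271 CPM for neutrophils and 9.26 to 23.9 against 20.5 to 39.6 CPM for dendritic cells. The part of these cells in the results was not tested. In bulk libraries such as these, fewer cells of a type and less RNA per cell cannot be told apart.

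The regions just upstream of 4 of the genes are shown because these genes span the range of the results, with *Gpnmb* and *Spp1* higher in ARG1+ cells, *Trem2* in between and *Cst7* lower. The sequences are the 250 bases before the annotated start, from RefSeq on GRCm38.p6, 5′ to 3′ on the strand of the gene, and all 4 genes lie on the forward strand. Capitals mark GAGGAA, the core of sites bound by PU.1, a transcription factor of the myeloid lineage, on either strand (TTCCTC on the reverse).
*Trem2*, chr17:48346151-48346400: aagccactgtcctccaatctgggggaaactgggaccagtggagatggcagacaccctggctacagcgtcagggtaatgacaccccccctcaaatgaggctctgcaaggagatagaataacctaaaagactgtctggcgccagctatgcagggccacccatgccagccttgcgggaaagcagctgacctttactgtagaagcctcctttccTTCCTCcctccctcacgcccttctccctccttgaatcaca
*Spp1*, chr5:104434861-104435110: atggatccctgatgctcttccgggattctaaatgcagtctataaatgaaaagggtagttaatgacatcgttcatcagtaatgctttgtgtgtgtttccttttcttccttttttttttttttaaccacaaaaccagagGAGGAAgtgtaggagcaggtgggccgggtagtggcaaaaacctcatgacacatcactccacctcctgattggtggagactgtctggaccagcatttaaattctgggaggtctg
*Gpnmb*, chr6:49036268-49036517: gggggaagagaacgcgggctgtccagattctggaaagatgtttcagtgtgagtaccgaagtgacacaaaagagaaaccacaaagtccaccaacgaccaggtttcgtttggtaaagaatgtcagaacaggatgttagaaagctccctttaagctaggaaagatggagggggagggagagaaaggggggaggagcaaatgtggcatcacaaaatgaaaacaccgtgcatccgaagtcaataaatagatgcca
*Cst7*, chr2:150570165-150570414: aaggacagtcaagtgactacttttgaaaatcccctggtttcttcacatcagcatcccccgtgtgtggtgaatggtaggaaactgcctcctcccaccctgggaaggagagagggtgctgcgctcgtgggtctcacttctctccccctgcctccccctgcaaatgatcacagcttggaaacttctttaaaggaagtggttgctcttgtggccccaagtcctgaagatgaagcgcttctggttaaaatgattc
The match lay 113 bases upstream of the start shown for *Spp1* and 40 bases upstream in *Trem2*, where it sits on the reverse strand. The window of a further annotated start of *Spp1*, chr5:104435942-104436191, held no match. A promoter was at hand for 7 of the 8 genes, in 9 entries, and not for *Tyrobp*. *Clec7a* also held GAGGAA, at 96 or 90 bases upstream of its 2 annotated starts, and the motif was not in the windows of *Gpnmb*, *Cst7*, *Cd9* and *Lgals3*. Of all 32851 mouse promoter windows of this length, 23.3% held it. CACGTG, the E-box read by the MiT/TFE factors of lysosomal genes, was in none of the 9 entries and in 6.02% of all windows, and TGAGTCA, the AP-1 site, was likewise in none and in 4.46% of all. These are matches of letters and not measured binding.

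ARG1+ cells had more *Gpnmb* and *Spp1* mRNA than ARG1- cells, with fitted folds of 2.11 and 2.34, and more *Lgals3*, with a fold of 1.32. The fold of *Trem2* itself was 1.31 and that of *Cd9* 1.14, and with all libraries kept neither passed the test unless the animal was taken into account. *Tyrobp* was at 1.01 and *Clec7a* at 0.899. *Cst7* stood on the other side, at 0.561, and with all libraries kept did not pass the test unless the animal was taken into account. Differences were tested with edgeR's quasi-likelihood test over all 13740 genes and are log2 fold changes of ARG1+ over ARG1-, with the Benjamini-Hochberg false discovery rate (FDR).

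At an FDR below 0.05, 3 of the 8 genes rose (*Gpnmb*, *Spp1* and *Lgals3*), where 6.82% of all tested genes did, and 0 fell, where 6.15% did. The study had already reported *Spp1* as higher in ARG1+ cells of the same libraries. Counts of the 8 genes that include *Spp1* are therefore not independent of these data. DESeq2 and limma-trend also called 3 higher and 0 lower, and at an unadjusted p below 0.05 in edgeR 4 were higher and 1, *Cst7*, was lower. The count of 3 was also found without the ARG1- library of m234 (*Gpnmb*, *Spp1* and *Trem2* then, where 7.29% of all genes rose and 5.73% fell). The count fell to 1 in 4 omissions, those of the m2 ARG1+ library, the m6 ARG1- library, the m236 ARG1- library and the m6 pair. With a log2 fold change past 1 in addition, 2 were called, *Gpnmb* and *Spp1*, where the background is 0.56% higher and 0.888% lower. This count was 1 when the m2 or m236 ARG1+ library, the m234, m6 or m236 ARG1- library, or the m6 or m235 pair was left out. *Gpnmb* was the only one of the 8 whose ARG1+ libraries all lay above all ARG1- libraries, as 6.15% of all genes did, and 0 of the 8 had all ARG1+ libraries below, as 5.2% did. The count of 1 became 2 when both libraries of m2, m234, m235 or m236 were left out, but groups of fewer libraries separate more easily. In these fits without the block, the share of all genes is given for 1 omission only, the FDR counts without the ARG1- library of m234. It is not given for DESeq2, limma-trend or the unadjusted p. The median of the 8 log2 fold changes was 0.29, against -0.00 over all tested genes.

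The 2 libraries of an animal resemble each other beyond their group, so the fit was also run with the animal as a block. In it 5 of the 8 genes rose, where 16.8% of all genes did, and 1 fell, where 18.3% did. *Trem2* and *Cd9* joined the genes that rose and *Cst7* was the one that fell. With the block and without m234, which was chosen after seeing the data, 5 rose, where 19.9% of all genes did, and 2 fell, *Cst7* and *Clec7a*, where 20.8% did. Together the 8 genes took 0.776% to 1.008% of the counts of an ARG1+ library and 0.532% to 0.689% of an ARG1- library.

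**Figure D1:**
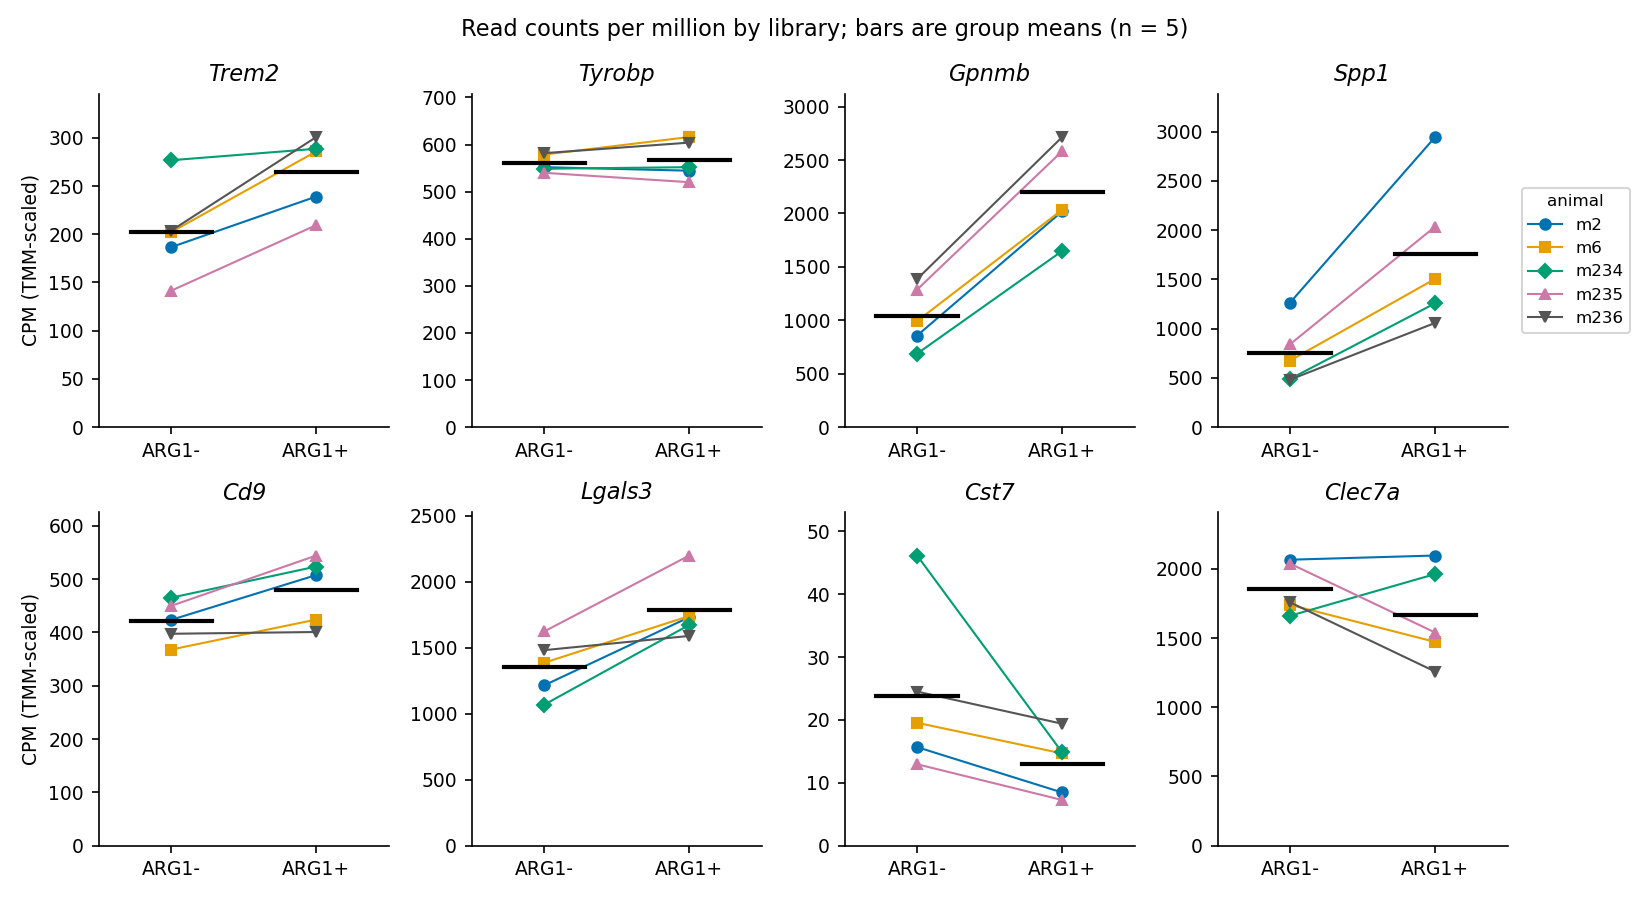
Level of each of the 8 genes by library, in CPM with TMM library sizes on linear axes from 0. Each symbol and line joins the ARG1- and ARG1+ libraries of an animal, and bars are means of 5 libraries. For *Gpnmb* the ARG1+ libraries (1649 to 2715 CPM) lie above all ARG1- libraries (688 to 1386 CPM), and for *Cst7* the ARG1- library of m234 (46.2 CPM) lies far above the others.

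Levels of different genes were compared per kilobase of annotated exon (CPM per kb), and ranked among the 13725 tested genes that had a length. In ARG1+ cells the order was *Lgals3* at 1120 ± 150 (SD, n = 5), *Spp1* at 1070 ± 459 and *Tyrobp* at 1010 ± 72.6 CPM per kb, whose ranges overlapped. *Clec7a* followed at 728 ± 154, *Gpnmb* at 487 ± 97.5, *Cd9* at 391 ± 51.8, *Trem2* at 232 ± 34 and *Cst7* at 13.1 ± 5.09 CPM per kb. The ranges of *Clec7a* and *Gpnmb* and those of *Gpnmb* and *Cd9* overlapped, while *Trem2* and *Cst7* each lay below all libraries of the gene before. All but *Cst7*, at rank 4906, were among the 304 most abundant genes. In ARG1- cells *Tyrobp* led with 993 ± 33.4 CPM per kb, ahead of *Lgals3* at 853 ± 137 and *Clec7a* at 810 ± 81.3, while *Spp1* stood at 456 ± 196, *Cd9* at 343 ± 31.9, *Gpnmb* at 231 ± 64.6, *Trem2* at 177 ± 42.6 and *Cst7* at 24.1 ± 13.4 CPM per kb. There each neighbour in the order overlapped with the next, apart from *Trem2* and *Cst7*. *Gpnmb* moved from rank 309 in ARG1- to 106 in ARG1+ cells and *Spp1* from 124 to 39, whereas *Tyrobp* stood at 38 and 45. The adaptor was thus above the receptor in each library in this measure, with 922 to 1090 CPM per kb for *Tyrobp* and 124 to 263 for *Trem2* over all 10 libraries.

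The receptor gene *Trem2* (ENSMUSG00000023992; chromosome 17, 48346401 to 48354147, forward strand) had 239, 286, 289, 209 and 301 CPM in the ARG1+ libraries of m2, m6, m234, m235 and m236. In the ARG1- libraries of the same animals it had 187, 202, 277, 141 and 204 CPM. It was higher in ARG1+ cells of every animal, but by little in m234. The groups overlapped only through the ARG1- library of m234, which was above 2 of the 5 ARG1+ libraries. Means were 265 ± 38.8 and 202 ± 48.7 CPM (SD, n = 5). The fitted log2 fold change was 0.39 (SE 0.154), with an FDR of 0.112 in edgeR and p = 0.0476 in a 2-sided exact permutation test. With the animal as a block it was 0.41 (SE 0.0676, FDR = 0.00127 in edgeR). Without the ARG1- library of m234 it was 0.53 (FDR = 0.0234 in edgeR) and without both libraries of this animal 0.50 (FDR = 0.0425 in edgeR). The microglia markers of that library are given above, and their part in its *Trem2* level was not tested.

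*Tyrobp* (ENSMUSG00000030579; chromosome 7, 30413760 to 30417585, forward strand), the adaptor shared by TREM2 and several other receptors, was the steadiest of the 8. It had 545, 616, 552, 520 and 604 CPM in ARG1+ and 552, 579, 549, 540 and 582 CPM in ARG1- libraries, in the same order of animals. The groups overlapped throughout, and 3 of 5 animals were higher in ARG1+ cells. The fit gave *Tyrobp* a log2 fold change of 0.02 (SE 0.0607, FDR = 0.874 in edgeR), with a 95% interval from -0.11 to 0.15, which narrowed to -0.07 to 0.10 with the block.

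*Gpnmb* (ENSMUSG00000029816; chromosome 6, 49036546 to 49070929, forward strand) codes for a transmembrane glycoprotein of lysosome-rich phagocytes and pigment cells. Its levels were 2020, 2035, 1649, 2583 and 2715 CPM in ARG1+ and 857, 993, 688, 1287 and 1386 CPM in ARG1- libraries of m2, m6, m234, m235 and m236. The lowest ARG1+ library was above the highest ARG1- library, and p = 0.00794 in the exact permutation test is the smallest that 5 against 5 libraries can give. Within animals the difference was 0.97 to 1.26 on the log2 scale, and animals with more *Gpnmb* in one sort had more in the other. In the fit the log2 fold change was 1.08 (SE 0.193, FDR = 0.00466 in edgeR) and 1.10 with the block (SE 0.0535, FDR = 1.41e-06 in edgeR). It stayed between 0.96 and 1.20 whichever library or animal was left out, and below an FDR of 0.05 each time.

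*Spp1* (ENSMUSG00000029304; chromosome 5, 104435118 to 104441050, forward strand) codes for osteopontin, a secreted glycoprotein that binds integrins and CD44. The ARG1+ libraries of m2, m6, m234, m235 and m236 had 2946, 1506, 1258, 2036 and 1059 CPM and the ARG1- libraries 1264, 676, 490, 842 and 482 CPM. Animals differed from each other by up to 2.78-fold in ARG1+ and 2.62-fold in ARG1- cells, and m2 was highest in both, so that its ARG1- library exceeded the lowest ARG1+ libraries. Within animals the difference was uniform, at 1.13 to 1.36 on the log2 scale. The log2 fold change was 1.23 both without the block (SE 0.316, FDR = 0.0261 in edgeR) and with it (SE 0.0444, FDR = 2.63e-07 in edgeR). Without the block the FDR was above 0.05 when the m2 ARG1+ library (0.0643), the m6 ARG1- library (0.0606), the m236 ARG1- library (0.0557), the m6 pair (0.0983) or the m235 pair (0.0663) was left out. *Gm42793* overlaps *Spp1* on the same strand and shares 11.6% of the stretches of 50 bases, a read length, in its transcripts, and had 2153 counts in all libraries. The counting drops reads that hit more than 1 gene, so reads in the shared part would be missing from the *Spp1* level. The CPM per kb of *Spp1* still uses its whole exon length, of which 18.8% is shared, and may be too low.

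**Figure D2:**
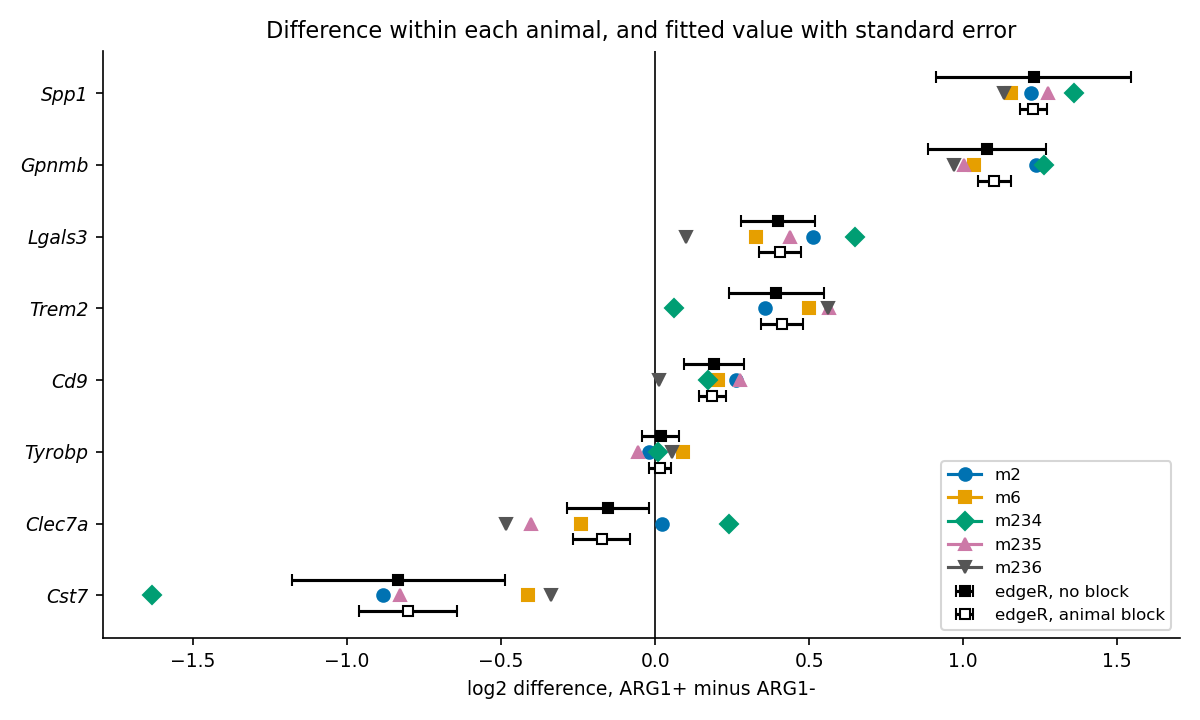
Difference of each gene between the ARG1+ and ARG1- libraries of an animal (coloured symbols, log2 of CPM) with the edgeR log2 fold change without (filled squares) and with the animal as a block (open squares). Bars are standard errors. The animals lie close together for *Spp1* (1.13 to 1.36) and *Gpnmb* (0.97 to 1.26) and on both sides of 0 for *Tyrobp* and *Clec7a*, and all 5 are below 0 for *Cst7* (-1.63 to -0.34).

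*Lgals3* (ENSMUSG00000050335; chromosome 14, 47367751 to 47386160, forward strand) codes for galectin-3, a sugar-binding protein that gathers at damaged lysosomes and is abundant in phagocytes. It had 1732, 1740, 1673, 2199 and 1590 CPM in ARG1+ and 1215, 1386, 1068, 1623 and 1482 CPM in ARG1- libraries. All 5 animals were higher in ARG1+ cells, by 0.10 (m236) to 0.65 (m234) on the log2 scale, and the groups overlapped only in that the ARG1- library of m235 was above the ARG1+ library of m236. The log2 fold change was 0.40 (SE 0.120) with an FDR of 0.0480 in edgeR, just inside the limit, and 0.0015 with the block. Without the block, the FDR was 0.0539 to 0.169 in every omission of 1 library or animal except that of the ARG1- library of m235 and of both libraries of m235. It was 0.0757 without the ARG1- library of m234, and 0.0544 with library totals in place of TMM library sizes.

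*Cd9* (ENSMUSG00000030342; chromosome 6, 125460266 to 125494791, reverse strand) codes for a tetraspanin that organises surface receptors and is a common surface marker of lipid-associated macrophages. Its levels were 507, 424, 523, 544 and 401 CPM in ARG1+ and 423, 368, 465, 450 and 397 CPM in ARG1- libraries. The groups overlapped, and every animal was higher in ARG1+ cells, m236 by only 0.01 on the log2 scale. The fit gave *Cd9* a log2 fold change of 0.19 (SE 0.0968, FDR = 0.208 in edgeR), and with the block 0.19 (SE 0.0441, FDR = 0.00949 in edgeR). The FDR with the block was 0.0535 without m2, a setting added after seeing the data. *Cd9* shares 14.4% of its stretches of 50 bases with other genes, among them the antisense gene *Gm26728*, which had 72 counts in all libraries.

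*Cst7* (ENSMUSG00000068129; chromosome 2, 150570415 to 150578944, forward strand) codes for cystatin F, an inhibitor of lysosomal cysteine proteases. It was the least abundant of the 8, with 8.46, 14.7, 14.8, 7.26 and 19.4 CPM in ARG1+ and 15.7, 19.6, 46.2, 13 and 24.5 CPM in ARG1- libraries of m2, m6, m234, m235 and m236. Every animal was lower in ARG1+ cells, and the groups overlapped. The animals stood in the same order in both sorts apart from m234. The log2 fold change was -0.83 (SE 0.347, FDR = 0.129 in edgeR; exact permutation p = 0.0873). With the block it was -0.80 (SE 0.159, FDR = 0.00356 in edgeR).

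The ARG1- library of m234 weighed on *Cst7*. Without it the log2 fold change was -0.49 (FDR = 0.257 in edgeR), and with the block and without both libraries of m234, added after seeing the data, -0.59 (FDR = 0.000176 in edgeR). Of the 9 microglia markers, 1 (*P2ry13*) fell in ARG1+ cells without the block and 8 fell with it, and their median log2 fold change was -0.94, or -0.50 without this library. Their sum was 296, 265, 290, 161 and 317 CPM in ARG1+ and 509, 299, 946, 216 and 355 CPM in ARG1- libraries. The part of the microglia markers in the *Cst7* difference was not tested.

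**Figure D3:**
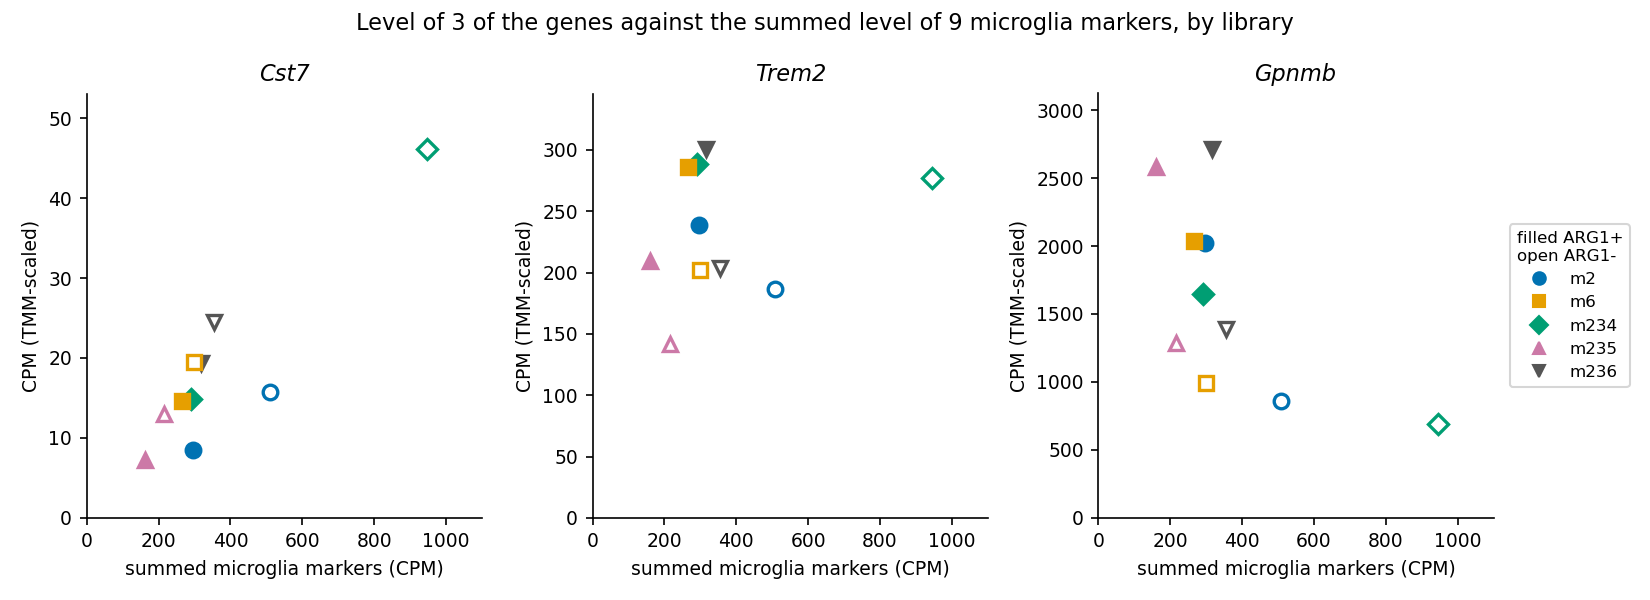
Level of *Cst7*, *Trem2* and *Gpnmb* (CPM, vertical) against the summed level of 9 microglia markers (CPM, horizontal) in each library. Filled symbols are ARG1+ and open symbols ARG1- libraries, and the shape gives the animal. The ARG1- library of m234 lies alone at 946 CPM of markers, with the highest *Cst7* (46.2 CPM) and the lowest *Gpnmb* (688 CPM).

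*Clec7a* (ENSMUSG00000079293; chromosome 6, 129461591 to 129472779, reverse strand) codes for Dectin-1, a lectin receptor for fungal beta-glucan that signals through SYK without TYROBP. It had 2097, 1472, 1963, 1540 and 1258 CPM in ARG1+ and 2066, 1741, 1661, 2038 and 1758 CPM in ARG1- libraries. The groups overlapped, and animals went both ways, with m2 and m234 higher and the other 3 lower in ARG1+ cells. The log2 fold change was -0.15 (SE 0.133, FDR = 0.468 in edgeR), with a 95% interval from -0.44 to 0.14, and -0.17 with the block (FDR = 0.175 in edgeR). Without m234 and with the block, added after seeing the data, it was -0.28 (FDR = 0.00402 in edgeR).

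Whether the other genes moved with the receptor was asked through the ratio of each gene to *Trem2* within a library, which does not depend on how libraries are scaled. None of the 7 ratios passed an adjusted p of 0.05 over the 7 genes in exact permutation tests. A ratio that alone reached the smallest p of the exact permutation test, 0.00794, could not pass, as its adjusted p was 0.0556. Not passing thus does not show that a ratio was unchanged. These tests do not use the pairing by animal, so the spread between animals weighs on them. A paired form over 5 animals has a smallest p of 0.0625 and could not pass. The *Cst7* to *Trem2* ratio had the smallest p that the unpaired test can give (p = 0.00794, adjusted p = 0.0556, exact permutation test). Its log2 difference between ARG1+ and ARG1- cells was -1.23, negative in 5 of 5 animals. *Tyrobp* per *Trem2* was also lower in all 5 animals, at -0.39 (adjusted p = 0.139, exact permutation test), and *Clec7a* per *Trem2* was at -0.58 (adjusted p = 0.167, exact permutation test). *Gpnmb* and *Spp1* per *Trem2* were higher in all 5 animals, at 0.69 (adjusted p = 0.167, exact permutation test) and 0.82 (adjusted p = 0.2, exact permutation test). *Lgals3* per *Trem2* differed by -0.00 and *Cd9* per *Trem2* by -0.22, with animals on both sides of 0.

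The likeness of profiles was measured as the root mean square difference of log2 CPM over the 10 libraries, after each gene was centred on its mean. This measure is small for any 2 genes that vary little, whatever their pattern. Among the 8 genes the smallest value was that of *Tyrobp* and *Cd9* at 0.235, which spanned only 0.244 and 0.565 on the log2 scale. Their patterns were not alike, as m6 and m236 had the highest *Tyrobp* and the lowest *Cd9* in both sorts. The farthest were *Spp1* and *Cst7* at 1.47, while *Gpnmb* and *Spp1* were 0.636 apart. The pair with the largest differences between sorts thus did not share its spread between animals. Among all tested genes, *Gpnmb* was nearest to *Per2*, *Il1r1* and *Fbxo32* (0.174 to 0.185), and *Spp1* to the neutrophil-attracting chemokines *Cxcl3* and *Cxcl1* and to *AI427809* (0.303 to 0.341). *Lgals3* was nearest to *Pqlc3*, *Sgk1* and the ferritin gene *Fth1* (0.0661 to 0.0694). *Trem2* was nearest to *Mcrip2*, *Arhgef12* and *Entpd4b* (0.0997 to 0.113), and *Cst7* to *St14*, *Meis3* and *Gm37168* (0.215 to 0.25). *Tyrobp*, *Cd9* and *Clec7a* spanned less than 1 on the log2 scale over the libraries and were not matched.

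Companion genes of the pathway were counted in lists, each read against the 6.82% of all genes that rose and the 6.15% that fell, or with the animal as a block the 16.8% and 18.3%. Counts without the ARG1- library of m234, and blocked counts without both libraries of m234, are given where they differ by over 1.5 times. Both settings were added after seeing the data. In the blocked fit without m234, 19.9% of all genes rose and 20.8% fell. Upstream of the receptor, 0 of 5 tested ligand and shedding genes rose or fell without the block in edgeR, DESeq2 or limma-trend, 0 had an unadjusted p below 0.05, and 1 rose with the block. With the block and without m234, 2 rose. *Apoe*, the apolipoprotein that TREM2 binds and the most abundant of them, averaged 19309 ± 6264 CPM (SD, n = 5) with ARG1 and 14168 ± 3576 CPM without, at a log2 fold change of 0.45 (FDR = 0.238 in edgeR) and an FDR of 0.000632 with the block. The sheddases *Adam10* and *Adam17* had log2 fold changes of -0.01 and -0.03. In a list of 19 signalling genes of the TYROBP pathway, 2 rose and 6 fell, and 2 rose and 10 fell with the block. The kinases *Lyn* (-0.37, FDR = 0.00143) and *Fyn* (-0.93, FDR = 0.0214), the protein kinase C gene *Prkcd* (-0.37, FDR = 0.0373) and the phospholipase *Plcg2* (-0.30, FDR = 0.0256, all in edgeR) were among those that fell. The others were *Malt1* (-0.29, FDR = 0.0181) and the phosphatase gene *Ptpn6* (-0.20, FDR = 0.0272, both in edgeR). *Syk*, the kinase that TYROBP recruits, had 504 and 499.6 CPM and a log2 fold change of 0.01 (FDR = 0.921 in edgeR). The genes that rose were *Vav3* (0.48) and *Hcst* (0.43), which codes for DAP10, a sister adaptor beside TYROBP and not downstream of it.

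Of 13 genes of the TREM locus and of other receptors that pair with TYROBP, 0 rose and 2 fell in edgeR, 4 fell in DESeq2, and 3 fell in limma-trend. At an unadjusted p below 0.05 in edgeR 2 were higher and 5 lower. The 2 that fell at the FDR limit in edgeR were *Clec5a*, a TYROBP-coupled lectin receptor (-0.60, FDR = 0.00274 in edgeR), and *Treml4* (-0.82, FDR = 0.028 in edgeR). *Trem1*, the most abundant, was at -0.12 (FDR = 0.553 in edgeR). The microglial *Siglech* was at -1.57 (FDR = 0.0824 in edgeR), with 24.8 ± 26.2 CPM (SD, n = 5) in ARG1- libraries. With the block 2 of the 13 rose and 5 fell, and with the block and without m234, 2 rose and 9 fell.

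Of 8 receptor genes for SPP1, 0 rose or fell without the block in edgeR, and 2 rose and 2 fell with it. Without the ARG1- library of m234, 1 fell. At an unadjusted p below 0.05 in edgeR 1 was higher and 1 lower, DESeq2 called 1 in each direction, and limma-trend called 1 lower. The hyaluronan and osteopontin receptor *Cd44* was at 1055 and 1052 CPM, and *Itgb3* at -1.21 (FDR = 0.188 in edgeR). Among 5 tested regulators and partners of *Gpnmb*, 0 rose or fell in edgeR, DESeq2 or limma-trend and 0 had an unadjusted p below 0.05. With the block 2 rose, *Tfec* of the MiT/TFE family (0.33 without the block, FDR = 0.167 in edgeR) and *Sdc4*. *Mitf*, *Tfe3* and *Tfeb* were at 0.07, -0.07 and -0.08. Of 7 tested lectin receptor genes around *Clec7a*, 0 rose or fell in edgeR, DESeq2 or limma-trend. The 1 at an unadjusted p below 0.05 was *Clec1b* (0.57, FDR = 0.142 in edgeR), which rose with the block. With the block and without m234, 1 of these lectin receptor genes rose and 2 fell.

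Of 12 tetraspanin genes and partners of CD9, 3 rose and 0 fell in edgeR, 6 rose and 1 fell in DESeq2, and 7 rose and 3 fell with the block. Without the ARG1- library of m234, 6 rose. *Tspan4*, a tetraspanin of migrasomes, rose by 0.93 (FDR = 0.00155 in edgeR), the CD9 partner *Ptgfrn* by 0.50 and *Cd151* by 0.42. *Cd53*, the most abundant, was at 0.15 (FDR = 0.286 in edgeR). *Cd81*, which microglia also express, was at -1.43 (FDR = 0.0678 in edgeR), and it fell with the block (FDR = 0.0125 in edgeR). It had 85.6 ± 74.6 CPM (SD, n = 5) in ARG1- libraries. Of 5 tested genes, galectins and the galectin-3 binding protein gene *Lgals3bp*, *Lgals1* rose (0.44, FDR = 0.0239 in edgeR). *Lgals3bp*, which is not a galectin, was at 0.32 (FDR = 0.118 in edgeR). With the block 3 of the 5 genes rose, *Lgals1*, *Lgals8* (FDR = 0.0211) and *Lgals3bp* (FDR = 0.00236, both in edgeR), and 0 fell. Of 8 tested cystatins and their target proteases, 4 rose and 0 fell. These 4 were all cathepsins, *Ctsb* (0.58), *Ctsl* (0.54), *Ctss* (0.37) and *Ctsh* (0.18), at FDRs of 0.00121 to 0.0458 in edgeR. The cystatin genes *Cst3* and *Cstb* were at -0.42 (FDR = 0.159 in edgeR) and 0.21 (FDR = 0.219 in edgeR). With the block 5 of the 8 rose and 2 fell, with *Cst3* among those that fell (FDR = 0.0233) and *Cstb* among those that rose (FDR = 0.0236, both in edgeR).

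**Figure D4:**
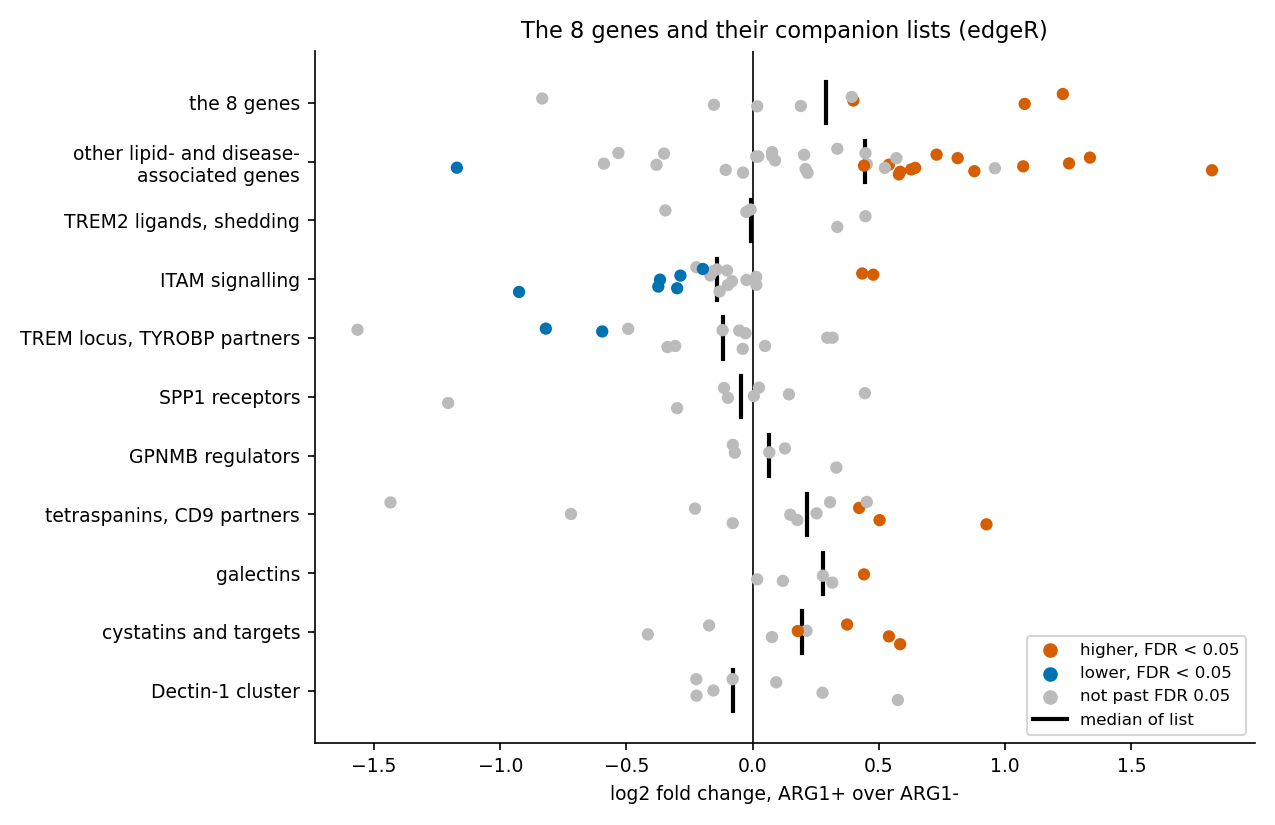
Log2 fold change (ARG1+ over ARG1-, edgeR without a block) of each tested gene of the 8 genes and 10 companion lists. Each point is a gene, coloured where its FDR was below 0.05, vertical position within a list is arbitrary, and bars are list medians. The 8 genes have a median of 0.29 and the other lipid- and disease-associated genes of 0.44, while the signalling genes of the TYROBP pathway have a median of -0.14 with 6 of 19 lower.

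The widest list held 36 further genes of lipid-associated macrophages and disease-associated microglia, of which 34 were tested. Of these 13 rose and 1 fell, and 21 and 4 with the block, at a median log2 fold change of 0.44 against 0.29 for the 8 genes. The list is not independent of these data, as the study had already reported *Fabp4*, *Fabp5* and *Ccl6* as higher in ARG1+ cells of the same libraries. *Apoe*, *Lpl*, *Cd63*, *Ctsb*, *Ctsl*, *Ctsz* and *Lgals1* are also counted in the lists above. Past a log2 fold change of 1 were *Atp6v0d2*, a subunit of the lysosomal proton pump (1.82, FDR = 0.00238), the fatty acid binding genes *Fabp4* (1.34) and *Fabp5* (1.25), and the chemokine gene *Ccl6* (1.07, FDR = 0.0237, all in edgeR). *Atp6v0d2* averaged 74.1 ± 27.1 CPM (SD, n = 5) in the ARG1+ and 20.4 ± 7.85 CPM in the ARG1- libraries. *Ch25h*, which makes 25-hydroxycholesterol, fell by 1.17 (FDR = 0.013 in edgeR) at 2.93 and 6.82 CPM. *Lipa* (0.63) and *Nceh1* (0.64), which free cholesterol from its esters, and the cholesterol exporter gene *Abca1* (0.73) also rose. Several other genes of the disease-associated state did not pass the test without the block, among them *Lpl* at 0.34 (FDR = 0.268), *Axl* at -0.38 (FDR = 0.0926) and *Itgax* at -0.35 (FDR = 0.441, all in edgeR). With the block *Axl* (FDR = 0.000124) and *Itgax* (FDR = 0.00431) fell, and *Lpl* did not pass (FDR = 0.141, all in edgeR). *Lpl*, *Axl* and *Itgax* were chosen for mention after their values were seen, as were *Lipa*, *Nceh1* and *Abca1* and the genes of the other lists that are neither the most abundant nor the most changed.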

How the data were processed

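RNA of sorted spinal cord myeloid cells was measured in 10 libraries, 5 of ARG1+ and 5 of ARG1- cells, each pair from 1 mouse. The deposited values are read counts that the authors made without normalization. The authors read 50 bases from 1 end of directional libraries, aligned them to GRCm38 with STAR (2.7.10b per the submitters' processing notes) and counted them on Ensembl genes with summarizeOverlaps in Union mode, which drops reads that hit more than 1 feature. For the use of strand in counting, the sources used here give nothing.

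The 13740 genes over 1 CPM in 3 or more libraries (99.82% of counts) were tested with edgeR 4.0.16 (R 4.3.3), glmQLFit and glmQLFTest with TMM library sizes and no block, at an FDR of 0.05 and, where stated, a log2 fold change of 1. This filter and these limits follow the study, which used limma-trend. CPM, intervals and folds are from this fit. Single values were compared by 2-sided exact permutation tests, 5 libraries against 5 without the pairing by animal, whose smallest p is 0.00794. Alternatives were DESeq2 1.42.0, limma-trend (limma 3.58.1), other library sizes and filters, the animal as a block, and omission of each library or animal. Library totals were 8396863 to 35455643 counts. The same animal numbers stand in both groups' labels. Residuals from the group means correlated at 0.361 to 0.664 across genes between libraries of the same animal and at most 0.0675 between animals, so the numbers pair the libraries. The chi-square per degree of freedom between libraries of a group, 17.8 to 71.7, was above sampling noise. The fits were tested on simulated data.

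Exon lengths and overlaps came from a GENCODE annotation of GRCm38 and covered 99.89% of tested genes. Upstream sequences came from RefSeq on GRCm38.p6, and motifs were searched on both strands. The 8 genes and the gene lists were chosen with earlier results of these data known. Genes named are the 8, in each list those past both limits, the most abundant and the one with the largest change, and the 3 genes with the most similar profile. Others are said to be chosen later. For monocytes and for microglia, 1 marker each is not reported here and was left out of the lists.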

Additional observations from a re-analysis of the deposited data

Results flagged for a closer look

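The *Lgals3* level of the ARG1+ library of m235, 2199 CPM, stood apart from the other 4 ARG1+ libraries, which had 1590 to 1740 CPM. Its gap to the next library was 0.721 of the whole range of the group on the log2 scale, above the critical value of 0.71 of Dixon's test for 5 samples. This was 1 of 16 groups of libraries examined (8 genes in 2 sorts), and chance gives about 1 such value in 20 groups. The ARG1- library of the same animal, at 1623 CPM, was also the highest of its group.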

How the results depend on the processing

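Of 391 alternative values of the reported results, 326 kept their direction and their side of the threshold or stayed within the spread, and 0 reversed. With the animal as a replicate block, 5 of the 8 genes rose and 1 fell, and the log2 fold changes of *Trem2* (0.41), *Cd9* (0.19) and *Cst7* (-0.80) passed the FDR limit. The block changed no other call of the 8 genes. With both libraries of 1 animal left out of the blocked fit, settings chosen after seeing the data, 5 genes rose without m234, m6, m235 or m236 and 4 without m2, where *Cd9* was at 0.17 (FDR = 0.0535 in edgeR), and 2 fell without m234 and 1 without each other animal. In these fits *Trem2* was at 0.37 to 0.50 (0.50 without m234, 0.42 without m2, 0.39 without m6, 0.38 without m235, 0.37 without m236), *Cd9* at 0.19, 0.18, 0.17 and 0.23 without m234, m6, m235 and m236, *Cst7* at -0.59, -0.79, -0.91, -0.79 and -0.94 without m234, m2, m6, m235 and m236, and *Clec7a* at -0.28 without m234. The share of all genes called is not given for the blocked omissions other than that of m234. With library totals in place of TMM, *Lgals3* was at 0.36 and its FDR at 0.0544, and the median of all genes was at -0.04.

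With 1 library or animal left out and no block, the number of genes that rose was 1 to 3, and the number past both limits 1 to 2. With a whole animal left out, the number whose groups did not overlap was 1 to 2, and fewer libraries make such a separation easier. With 1 library or animal left out the log2 fold change was 0.29 to 0.53 for *Trem2*, 0.96 to 1.5 for *Spp1* and 0.31 to 0.48 for *Lgals3*. The causes were not tested. The ratios to *Trem2* under the block were tested by flipping signs over 5 animals, whose smallest p is 0.0625, so no ratio could pass. The ARG1- library of m234 held the fewest counts, 393 of them for *Cst7*.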
